A study of Drosophila melanogaster with 12 samples.

Results

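The genes described here make and break down urate in Drosophila melanogaster. They are Uro (urate oxidase), ry (rosy, xanthine dehydrogenase), mal (maroon-like, the sulfurase of the molybdenum cofactor) and cin (cinnamon, an enzyme of molybdenum cofactor synthesis). They were matched by name through the gene identifiers in the count tables and are 4 of 13919 genes. RNA was sequenced from Malpighian tubules, the excretory organ of insects, dissected from 6 days old females reared at 20 °C under a cycle of 14 h light and 10 h dark. The groups were the F1 hybrids SU26xSU58, SU26xZI418N and SU58xZI418N and the parental lines ZI418N (Zambia), SU58 (Sweden) and SU26 (Sweden), with 2 libraries of each of the 6 genotypes, described as biological replicates. Each parental genotype is 1 line, so a difference between lines is not a difference between populations. Nothing in the labels says which parent was the mother of a hybrid, or how many flies went into a library.

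Purines leave the fly along a short route. Xanthine dehydrogenase oxidises hypoxanthine to xanthine and xanthine to urate, and urate oxidase, which in adult flies is known from the Malpighian tubules, converts urate on the way to allantoin. Xanthine dehydrogenase works only with a molybdenum cofactor that the cin product helps to build and the mal product charges with sulfur, so that ry, mal and cin mutants all lack its activity, while mal and cin mutants lose aldehyde oxidase as well.

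Total gene counts per library ranged from 30834175 to 43479929. Levels are counts scaled to library size (CPM) on library sizes scaled by TMM, a method that evens out differences in composition, and comparisons between genes use CPM per kilobase of transcript (CPM per kb). A gene was called different when edgeR's quasi-likelihood test, fitted over all 9302 genes with sufficient counts, gave a Benjamini-Hochberg adjusted p under 0.05. All 4 urate genes were among the genes tested. Markers of the 2 main tubule cell types were present in every library, with summed levels of 3753 to 7880 CPM for 8 markers of principal cells, the ion-transporting cells, and 949 to 1573 CPM for 8 markers of stellate cells. Markers of other tissues summed to less than those of principal cells. The sums were 176 to 1124 CPM for fat body, 101 to 169 for muscle, 15.7 to 22.8 for eye and neurons, 6.05 to 24.6 for gut and 0 to 131 for salivary gland. In SU58 replicate 1, fat body markers (1070 CPM) summed to more than stellate cell markers (1022 CPM). LysP, at up to 130 CPM, made up nearly all of the high salivary gland sums. These were 131 and 17.3 CPM in ZI418N, 24.0 in SU26xZI418N replicate 2 and 74.2 in SU58xZI418N replicate 1, beside at most 0.0798 CPM in the other libraries. Sgs5 was at 0 in all 12 libraries and Sgs3 and Sgs7 in 9 each. The fat body sum came mostly from Yp1, Yp2 and Yp3, which averaged 190, 123 and 131 CPM. Of its other markers, apolpp averaged 44.9, Lsp2 1.66 and CG5966 0.83 CPM, and Fbp1 was at 0 in 3 libraries. The fat body sum is therefore largely a measure of the Yp genes. In 2 libraries ovarian transcripts stood apart: the 12 germ line and eggshell markers summed to 581 CPM in SU26xZI418N replicate 2 and to 253 CPM in SU58 replicate 1, beside a median of 6.23 CPM over the 12 libraries. In whole tubules, fewer cells of a type and less RNA per cell cannot be told apart.

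Per kilobase, the enzymes stood far apart in level and the breakdown enzyme was the highest. Uro lay between 1088 and 3331 CPM per kb and ranked between 16th and 85th of the genes tested, taking 0.137% to 0.386% of all counts. The xanthine dehydrogenase gene ry lay between 48.9 and 111 CPM per kb and ranked from 695 to 1347. The cofactor genes were lower again, cin at 15.8 to 19.9 CPM per kb with ranks from 2527 to 2927, and mal at 8.36 to 13.9 CPM per kb with ranks from 3204 to 4432. The order Uro, ry, cin, mal held in each of the 12 libraries, since these ranges do not overlap. The counts behind the levels were 52685 to 145933 per library for Uro, 6420 to 18478 for ry, 1124 to 1640 for cin and 958 to 1384 for mal.

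The genes also differed in how much they varied. Over the 12 libraries the SD of log2 CPM was 0.54 for Uro, larger than that of 93.1% of the 5362 genes averaging 10 CPM or more. It was 0.44 for ry, larger than that of 89.6%, 0.21 for mal, larger than that of 58.9%, and 0.10 for cin, larger than that of only 11.4%. Between the highest and lowest library this came to 3.06-fold for Uro, 2.28-fold for ry, 1.66-fold for mal and 1.26-fold for cin. The spread of Uro lay mostly between genotypes, with an SD of 0.51 between genotype means and 0.31 between the libraries of a genotype. For ry the corresponding SDs were 0.36 and 0.37, so that its libraries of the same genotype differed about as much as its genotype means.

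**Figure D1:**
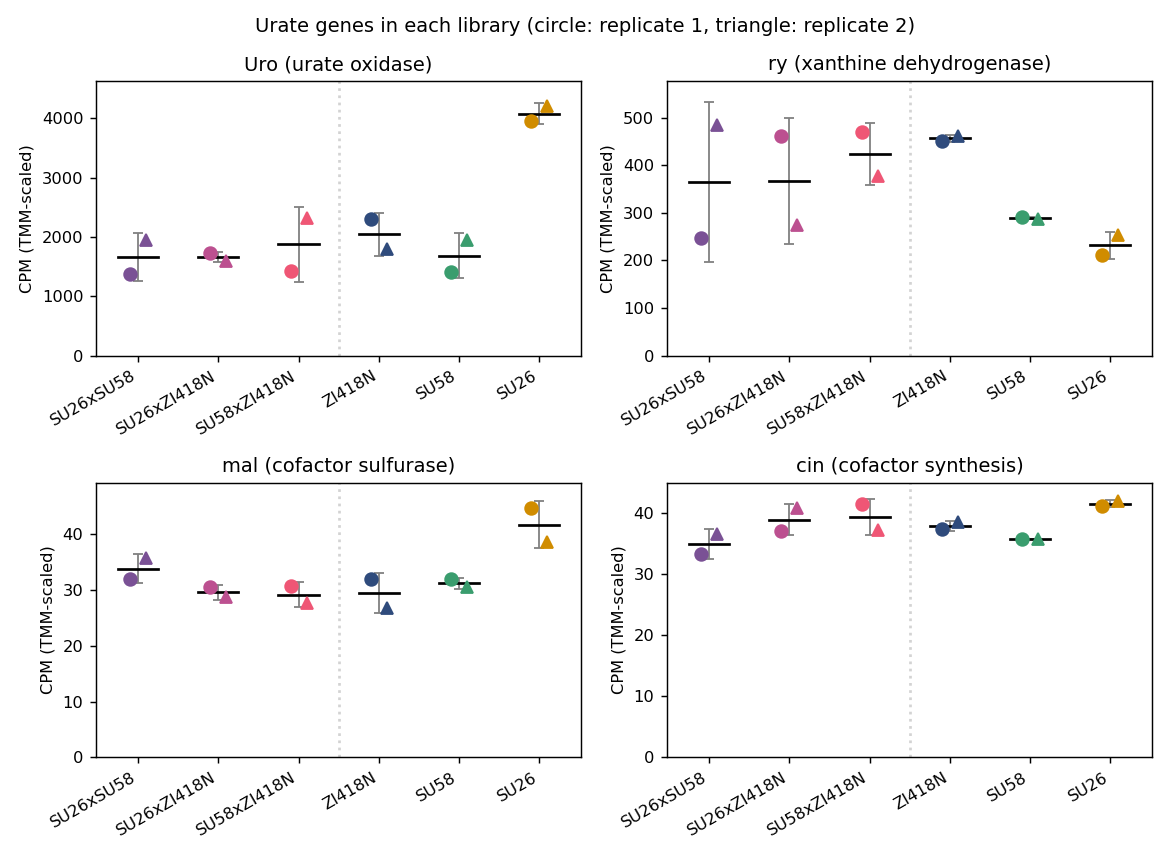
Level of each urate gene in each library, in TMM-scaled CPM on linear axes that start at 0; circles are replicate 1, triangles replicate 2, and the bar and whiskers are the mean and SD (n = 2). The SU26 libraries of Uro, at 3949 and 4204 CPM, sit above all others, while ry in SU26xSU58 spans 247 to 484 CPM.

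Uro, urate oxidase (FBgn0003961), is a gene of 2 exons on chromosome arm 2L, from base 7780085 to base 7781415 of the plus strand (Ensembl annotation of BDGP6), and its 1262 exonic bases overlap no other gene. It had 1373 and 1948 CPM in SU26xSU58, 1725 and 1599 CPM in SU26xZI418N, 1425 and 2322 CPM in SU58xZI418N, 2305 and 1792 CPM in ZI418N, 1417 and 1953 CPM in SU58, and 3949 and 4204 CPM in SU26. Both SU26 libraries were above the other 10, which overlapped one another. The genotype means ran 1661 ± 407 CPM in SU26xSU58, 1662 ± 89.0 CPM in SU26xZI418N, 1873 ± 635 CPM in SU58xZI418N, 2048 ± 363 CPM in ZI418N, 1685 ± 379 CPM in SU58 and 4076 ± 180 CPM in SU26 (SD, n = 2 each).

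Of the 15 pairs of genotypes, Uro differed in 5, and all 5 contained SU26. In the pairs of hybrids with ZI418N and SU58 the share of all genes called was 14.9% in SU26xSU58 against ZI418N, 3.06% in SU26xZI418N against ZI418N, 3.45% in SU58xZI418N against ZI418N, 0.806% in SU26xSU58 against SU58, 12.8% in SU26xZI418N against SU58 and 2.54% in SU58xZI418N against SU58, and Uro was called in none of them. Among the 10 pairs without SU26 the largest difference was 0.30 on the log2 scale, and none was called.

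Uro was lower in SU58 than in SU26, with a log2 fold change of -1.27 ± 0.26 (SE; adjusted p = 0.0115; 95% interval -1.86 to -0.68), and both SU58 libraries were below both SU26 libraries. In that comparison 17.6% of all genes tested were called, with 9.56% of all genes tested called lower, and 2 of the 4 urate genes, Uro and mal, were called lower. Uro was also lower in ZI418N than in SU26, by -0.99 ± 0.26 (adjusted p = 0.0229; interval -1.58 to -0.41). There 24% of all genes tested were called, with 13.1% of all genes tested called lower, and again Uro and mal of the 4. These comparisons share the SU26 libraries and are not independent of each other. Uro rests on few libraries: the SU58 call was lost without SU26 replicate 2 (adjusted p = 0.0589) or SU58 replicate 1 (0.113), and the ZI418N call without any 1 of SU26 replicate 1 (0.0625), SU26 replicate 2 (0.0964), ZI418N replicate 1 (0.0564) or ZI418N replicate 2 (0.138), while the fold change stayed between -1.52 and -1.06 for SU58 and between -1.18 and -0.83 for ZI418N. Without both libraries rich in ovarian transcripts, Uro in SU58 against SU26 was -1.07 (adjusted p = 0.111).

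ZI418N and SU58 did not differ detectably in Uro, at a log2 fold change of 0.28 ± 0.26 (adjusted p = 0.527) with an interval from -0.30 to 0.86. In this comparison 16.9% of all genes were called and 0 of the 4 urate genes, 0 also at an unadjusted p under 0.05 and 0 by DESeq2.

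The hybrids with an SU26 parent did not have the SU26 level of Uro. Against SU26, Uro was -1.30 ± 0.26 in SU26xSU58 (adjusted p = 0.0269, where 4.54% of all genes were called), -1.29 ± 0.26 in SU26xZI418N (adjusted p = 0.0128, 22.7% called) and -1.12 ± 0.26 in SU58xZI418N, which has no SU26 parent (adjusted p = 0.0183, 17.2% called). The SU26xSU58 call was lost without either SU26 library or either SU26xSU58 library (adjusted p up to 0.188) and when only the libraries compared were fitted (0.050035, just past the threshold). The SU58xZI418N call was lost without SU26 replicate 1 (0.055), SU26 replicate 2 (0.0896) or SU58xZI418N replicate 1 (0.112), and the SU26xZI418N call without SU26 replicate 2 (0.0674) or SU26xZI418N replicate 2 (0.0668), the library rich in ovarian transcripts. On a scale that sets SU26 to 0 and the other parent to 1, Uro was at 1.02 in SU26xSU58, with 1.21 and 0.82 for its libraries, and at 1.30 in SU26xZI418N, with 1.24 and 1.34. Both hybrids therefore lay nearer to the low parent than to SU26 in each library.

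The mid-parent value is the mean of both parents' log2 levels. Relative to it, Uro was -0.66 ± 0.23 in SU26xSU58 (adjusted p = 0.625; interval -1.18 to -0.14), -0.80 ± 0.23 in SU26xZI418N (adjusted p = 0.0702; interval -1.32 to -0.28) and 0.01 ± 0.22 in SU58xZI418N (adjusted p = 1.00; interval -0.49 to 0.51). None of the 4 urate genes was called in any of the 3 comparisons, in which 0.108%, 5% and 0.387% of all genes were called. At an unadjusted p under 0.05 the urate genes numbered 1, 2 and 0. In the SU26xZI418N comparison DESeq2 called Uro (adjusted p = 0.0034), where edgeR did not, and DESeq2 called no other of these 12 deviations. The deviations of the hybrids were not shown to differ from each other: the SU58xZI418N deviation exceeded that of SU26xZI418N by 0.81 (adjusted p = 0.221; 0.043% of genes called) and that of SU26xSU58 by 0.67 (adjusted p = 0.804; 0.0968%), and those of SU26xZI418N and SU26xSU58 differed by -0.14 (adjusted p = 0.864; 0.151%). The 3 hybrids averaged together, relative to the average of the 3 parental lines, gave -0.48 ± 0.15 for Uro (adjusted p = 0.225, unadjusted p = 0.0101; 0.849% of genes called), a comparison that DESeq2 called (adjusted p = 0.0243). The same comparison gave 0.30 for ry (adjusted p = 0.458), -0.13 for mal (0.414) and -0.02 for cin (0.859). No urate gene was outside the range of both parents in any hybrid by edgeR's test, where 0% of all genes tested were. Between hybrids, none of the 4 was called in SU26xZI418N against SU26xSU58 (4.73% of all genes called), SU58xZI418N against SU26xSU58 (2.89%) or SU58xZI418N against SU26xZI418N (2.06%), and no log2 fold change exceeded 0.21 in size. DESeq2 called 0 there too, as did edgeR at an unadjusted p under 0.05.

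**Figure D2:**
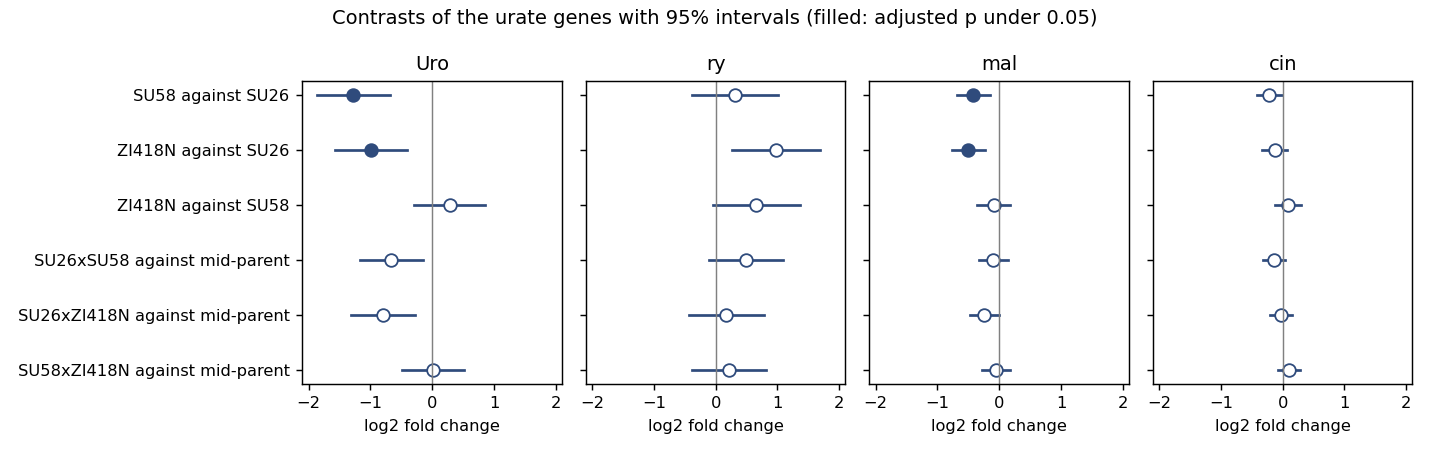
Log2 fold changes of the urate genes for pairs of parental lines and for each hybrid against the mean of its parents (mid-parent), with 95% intervals; filled circles had an adjusted p under 0.05. Uro and mal are filled in SU58 against SU26 and in ZI418N against SU26, and every interval of Uro that lies below 0 belongs to a contrast with SU26 or with one of its hybrids.

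Uro is a gene of principal cells, so their other markers are given beside it. The 8 principal cell markers, Uro left out, summed to 4544 and 5526 CPM in SU26xSU58, 5275 and 4474 CPM in SU26xZI418N, 5031 and 3856 CPM in SU58xZI418N, 5411 and 5116 CPM in ZI418N, 3753 and 3957 CPM in SU58, and 7880 and 6977 CPM in SU26. SU26 was the highest here too, and most of the difference lay in salt, a predicted transporter gene, which was lower in SU58 than in SU26 (log2 fold change -1.46 ± 0.18, adjusted p = 0.00087) and lower in ZI418N than in SU26 (-1.04 ± 0.17, adjusted p = 0.00287). Without salt the other markers summed to 2534 and 2517 CPM in ZI418N, 1842 and 1779 CPM in SU58, and 1781 and 1804 CPM in SU26, with 1656 to 2185 CPM in the hybrids. The summed markers other than salt were thus not higher in SU26. Of the 8, 1 rose and salt fell in SU58 against SU26, and 3 rose and salt fell in ZI418N against SU26, beside the 17.6% and 24% of all genes called. The 8 stellate cell markers summed to 1077 and 1099 CPM in SU26xSU58, 1433 and 1103 CPM in SU26xZI418N, 1355 and 1273 CPM in SU58xZI418N, 1573 and 1527 CPM in ZI418N, 1022 and 1029 CPM in SU58, and 1015 and 949 CPM in SU26. ZI418N was the highest of the parental lines in these markers, of which 5 rose and none fell in ZI418N against SU26, and 1 rose and none fell in SU58 against SU26. The part of cell type markers in the Uro values was not tested.

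**Figure D3:**
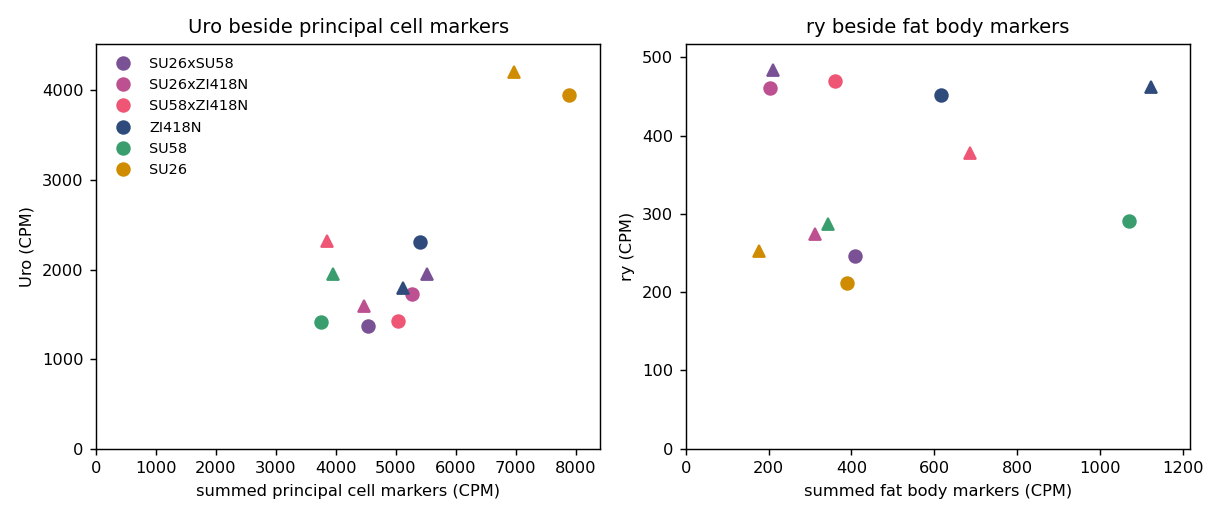
Left, Uro against the summed principal cell markers of each library, and right, ry against the summed fat body markers, all in TMM-scaled CPM; circles are replicate 1 and triangles replicate 2. The SU26 libraries stand apart on both axes on the left, while on the right the libraries with 461 and 462 CPM of ry have 204 and 1124 CPM of fat body markers.

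ry, xanthine dehydrogenase (FBgn0003308), has 4 exons on chromosome arm 3R, bases 13032528 to 13038020 on the plus strand, with 4337 exonic bases that overlap no other gene. It had 247 and 484 CPM in SU26xSU58, 461 and 274 CPM in SU26xZI418N, 470 and 377 CPM in SU58xZI418N, 451 and 462 CPM in ZI418N, 291 and 287 CPM in SU58, and 212 and 252 CPM in SU26. The parental lines did not overlap and ran in the order ZI418N, SU58, SU26, with means of 457 ± 7.56, 289 ± 2.55 and 232 ± 28.4 CPM (SD, n = 2 each). The hybrids SU26xSU58 and SU26xZI418N each had 1 library near the ZI418N level and 1 in the range of the Swedish lines, with means of 365 ± 168 and 368 ± 132 CPM, and SU58xZI418N averaged 423 ± 65.4 CPM. Libraries with 451 to 484 CPM of ry had 2071 to 2534 CPM of principal cell markers other than salt. Those with 212 to 377 CPM of ry had 1656 to 1842 CPM of these markers. With salt included, the SU26 libraries had the highest sums, 7880 and 6977 CPM, beside their low ry. The part of principal cells in the ry values was not tested.

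This spread within hybrids enters every test of ry, since the genotypes share 1 estimate of variation. In ZI418N against SU26 the log2 fold change of ry was 0.98 ± 0.31, with an adjusted p of 0.0503 that missed the threshold and an interval from 0.27 to 1.68. It passed with DESeq2 (adjusted p = 0.00555), when only the libraries compared were fitted (0.0067), with no filter on low counts (0.0375), or without any 1 of the 4 libraries of SU26xSU58 and SU26xZI418N (0.0179 to 0.0297), at fold changes close to the same value. Against SU58, ry was 0.66 ± 0.31 in ZI418N (adjusted p = 0.189; interval -0.04 to 1.36), and this passed only when the libraries of those lines were fitted alone (0.00169). SU58 against SU26 gave 0.32 ± 0.31 (adjusted p = 0.536; interval -0.38 to 1.02).

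Among all 15 pairs of genotypes no difference in ry was called by edgeR, with 2 at an unadjusted p under 0.05 and 2 called by DESeq2. The deviation of ry from the mean of the parents was 0.49 ± 0.26 in SU26xSU58 (adjusted p = 0.905), 0.17 ± 0.26 in SU26xZI418N (0.694) and 0.22 ± 0.26 in SU58xZI418N (adjusted p = 1.00). Leaving out 1 library of SU26xSU58 or SU26xZI418N decided the value: over all libraries left out, the deviation ranged from -0.07 to 0.90 in SU26xSU58 and from -0.25 to 0.51 in SU26xZI418N. In each hybrid the library with the lower ry had more fat body marker CPM than the other library. The sums, lower ry first, were 409 and 211 CPM in SU26xSU58, 313 and 204 CPM in SU26xZI418N, and 686 and 362 CPM in SU58xZI418N. The parental lines had 616 and 1124 CPM in ZI418N, 1070 and 344 CPM in SU58, and 389 and 176 CPM in SU26. Germ line and eggshell markers, again lower ry first, summed to 1.73 and 7.42 CPM in SU26xSU58. They summed to 581 and 16.3 CPM in SU26xZI418N, and to 30.4 and 2.85 CPM in SU58xZI418N. The part of these tissues in the ry values was not tested.

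SU26 had the highest mean of Uro and the lowest mean of ry, and the ratio of the pair was highest there. The ratio of Uro to ry in CPM per kb was 19.1 and 13.8 in SU26xSU58, 12.9 and 20.1 in SU26xZI418N, 10.4 and 21.2 in SU58xZI418N, 17.5 and 13.3 in ZI418N, 16.7 and 23.4 in SU58, and 64.0 and 57.2 in SU26. The 10 libraries of the other genotypes spanned 10.4 to 23.4 and the SU26 libraries did not overlap them. This ratio is given as a description, with no test.

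**Figure D4:**
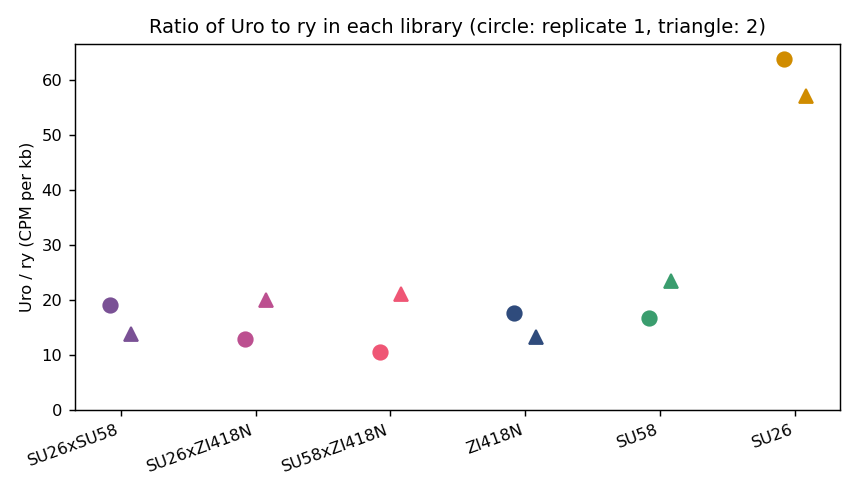
Ratio of Uro to ry, both in CPM per kb, in each library, on a linear axis from 0; circles are replicate 1 and triangles replicate 2. The SU26 libraries lie at 64.0 and 57.2 and every other library lies between 10.4 and 23.4.

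mal, the sulfurase that activates the cofactor of xanthine dehydrogenase and aldehyde oxidase (FBgn0002641), lies on the X chromosome, bases 20429675 to 20433210 on the plus strand, with 3209 exonic bases in 2 transcripts. It had 31.9 and 35.7 CPM in SU26xSU58, 30.6 and 28.7 CPM in SU26xZI418N, 30.7 and 27.6 CPM in SU58xZI418N, 31.9 and 26.8 CPM in ZI418N, 31.9 and 30.5 CPM in SU58, and 44.6 and 38.7 CPM in SU26. As for Uro, both SU26 libraries were above the other 10, but by a smaller margin. The means were 33.8 ± 2.64 CPM in SU26xSU58, 29.6 ± 1.34 CPM in SU26xZI418N, 29.2 ± 2.18 CPM in SU58xZI418N, 29.4 ± 3.60 CPM in ZI418N, 31.2 ± 1.02 CPM in SU58 and 41.7 ± 4.21 CPM in SU26.

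All 4 of the pairs in which mal differed, out of 15, contained SU26. Among the pairs without SU26 the largest difference was 0.21 on the log2 scale. mal was lower in SU58 than in SU26 (log2 fold change -0.42 ± 0.12, adjusted p = 0.0399) and lower in ZI418N than in SU26 (-0.50 ± 0.12, adjusted p = 0.0142). It was likewise lower than in SU26 in SU26xZI418N (-0.49, adjusted p = 0.0226) and SU58xZI418N (-0.51, adjusted p = 0.0173), while SU26xSU58 gave -0.30 (adjusted p = 0.191). The SU58 call was close to the threshold and was lost without any 1 of the libraries of SU26, SU58 or SU58xZI418N (adjusted p from 0.0545 to 0.200) and with upper quartile scaling (0.0718). The ZI418N call was lost without SU26 replicate 1 (0.0827) or ZI418N replicate 2 (0.0951), and the SU26xZI418N call without SU26 replicate 1 (0.0965) or SU26xZI418N replicate 2 (0.106). The SU58xZI418N call was lost without SU26 replicate 1 (0.0911), SU58xZI418N replicate 1 (0.0526) or SU58xZI418N replicate 2 (0.124). With only the libraries compared, the calls of ZI418N (0.0508), SU26xZI418N (0.142) and SU58xZI418N (0.0533) against SU26 were lost. On the scale from SU26 at 0 to the other parent at 1, mal was at 0.72 in SU26xSU58 and 0.98 in SU26xZI418N. Its deviation from the mean of the parents was -0.09 in SU26xSU58 (adjusted p = 1.00), -0.24 in SU26xZI418N (0.165) and -0.05 in SU58xZI418N (1.00), and ZI418N against SU58 gave -0.09 (0.694; interval -0.35 to 0.18).

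cin, which acts in the last steps of molybdenum cofactor synthesis (FBgn0000316), lies near the tip of the X chromosome, bases 255674 to 258469 on the plus strand. Of its 2110 exonic bases 135, or 6.4%, are shared with CG13377 on the opposite strand and the RNA gene asRNA:CR43906 on the same strand as cin. Strand use in counting is not given in the sources used here. It had 33.3 and 36.7 CPM in SU26xSU58, 37.2 and 40.8 CPM in SU26xZI418N, 41.5 and 37.3 CPM in SU58xZI418N, 37.4 and 38.6 CPM in ZI418N, 35.7 and 35.7 CPM in SU58, and 41.2 and 42.0 CPM in SU26. The SU26 libraries were above all others but SU58xZI418N replicate 1, and the other groups spread over a narrow range. No pair of the 15 was called by edgeR or DESeq2, with 2 at an unadjusted p under 0.05. The difference nearest to a call was SU58 against SU26, at -0.22 ± 0.09 (adjusted p = 0.134; interval -0.42 to -0.01). ZI418N against SU26 gave -0.13 (adjusted p = 0.330) and ZI418N against SU58 gave 0.09 (0.583), and the deviations from the mean of the parents were -0.14, -0.03 and 0.10 in SU26xSU58, SU26xZI418N and SU58xZI418N. These intervals were the narrowest of the 4 genes.

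For each member, the 3 genes with the highest Pearson's r of log2 CPM over the 12 libraries were taken from 5361 genes averaging 10 CPM or more. As the highest of 5361 values, these r are raised by the choice itself. Closest to Uro were Spase12, a signal peptidase subunit (r = 0.93), Arp1, a dynactin subunit (0.92), and Vps2, of the endosomal sorting machinery (0.91). Closest to ry were Ent2, an equilibrative nucleoside transporter (0.95), Acsx1R (0.90) and Eogt, a glycosyltransferase (0.88). Closest to mal were mfrn, the mitochondrial iron carrier mitoferrin (0.95), CG9799 (0.94) and scb, an integrin subunit (0.93). Closest to cin were the ubiquitin protease Usp14 (0.87), the mitochondrial protease rho-7 (0.86) and the ubiquitin protease Usp5 (0.86). The libraries of a genotype share their source, so these values describe the libraries and carry no test.

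Of 33 other listed genes of purine and molybdenum cofactor metabolism, 32 were found and 31 tested. In SU58 against SU26, 4 rose and 1 fell, beside 8.06% of all genes called higher and 9.56% called lower. In ZI418N against SU26, 2 rose and 5 fell, beside 10.9% and 13.1%. In ZI418N against SU58, none rose and 8 fell, beside 7.58% and 9.33%. In the hybrids SU26xSU58, SU26xZI418N and SU58xZI418N, set against mid-parent, edgeR called none of the 31, with 1, 2 and 2 at an unadjusted p under 0.05 and 1, 1 and 0 called by DESeq2.

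The 10 genes of de novo purine synthesis, the route that builds IMP and from it AMP and GMP, included calls in both directions. In SU58 against SU26, CG11089 and bur rose and Prat fell. In ZI418N against SU26, Prat, Pfas, Adsl and ras fell, and in ZI418N against SU58, CG11089, Adsl and Adss fell. The calls of bur, Pfas, Adsl and Adss were not rerun with other settings or with libraries left out. The list medians were 0.00, -0.25 and -0.23 on the log2 scale, where those over all genes were 0.01 in each comparison.

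Prat, the amidotransferase of the first committed step, had 19.4 and 19.3 CPM in SU26xSU58, 18.2 and 20.8 CPM in SU26xZI418N, 13.3 and 10.1 CPM in SU58xZI418N, 13.5 and 8.75 CPM in ZI418N, 13.5 and 12.6 CPM in SU58, and 28.8 and 27.8 CPM in SU26. SU26 was highest here as for Uro, but the hybrids with an SU26 parent lay between their parents. Prat fell by 1.12 on the log2 scale in SU58 against SU26 (adjusted p = 0.0054; 0.055 without SU58 replicate 2) and by 1.35 in ZI418N against SU26 (0.00146). CG11089, the counterpart of the bifunctional enzyme that closes the IMP ring, had 25.5 and 29.6 CPM in SU26xSU58, 17.0 and 20.3 CPM in SU26xZI418N, 34.4 and 27.8 CPM in SU58xZI418N, 19.6 and 17.0 CPM in ZI418N, 34.8 and 34.1 CPM in SU58, and 16.6 and 17.9 CPM in SU26. It was high in SU58 and its hybrids, with log2 fold changes of 1.00 in SU58 against SU26 (adjusted p = 0.00191) and -0.91 in ZI418N against SU58 (0.00225). ras, IMP dehydrogenase, had 83.3 and 71.4 CPM in ZI418N, 91.5 and 87.9 CPM in SU58, and 112 and 107 CPM in SU26, and fell by 0.50 in ZI418N against SU26 (adjusted p = 0.00529).

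Of 11 tested genes of purine salvage and breakdown towards xanthine, veil alone was called, in all 3 pairs of parental lines. veil encodes a 5′ nucleotidase, an enzyme that removes phosphate from nucleotides. It had 93.2 and 97.9 CPM in SU26xSU58, 53.0 and 42.2 CPM in SU26xZI418N, 108 and 123 CPM in SU58xZI418N, 70.0 and 72.6 CPM in ZI418N, 161 and 174 CPM in SU58, and 20.8 and 24.9 CPM in SU26. The parental lines did not overlap, and each hybrid lay between its parents. veil was 7.32-fold higher in SU58 than in SU26 (log2 fold change 2.87 ± 0.14, adjusted p = 5.36e-06), 3.12-fold higher in ZI418N than in SU26 (1.64 ± 0.13, adjusted p = 5.71e-05), and fell by 1.23 ± 0.13 in ZI418N against SU58 (adjusted p = 0.000272). These calls were made under each of the 19 alternatives run. SU26, the line with the most Uro, had the least veil. The related 5′ nucleotidase NT5E-2 was at 1116 to 1335 CPM over the 12 libraries and was not called. The adenosine deaminase relative Adgf-A (3.91 to 8.73 CPM) and the nucleotidase cN-IIIB (8.50 to 13.1 CPM) gave -0.64 (adjusted p = 0.0915) and -0.38 (0.126) in ZI418N against SU58, their largest differences between parental lines. Both passed when only the libraries compared were fitted (adjusted p = 0.0488 and 0.0448).

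Among the 4 other cofactor genes, Mocs1, of the first step of cofactor synthesis, rose in ZI418N against SU26. It had 31.7 and 38.2 CPM in ZI418N, 29.6 and 25.7 CPM in SU58, and 21.4 and 21.9 CPM in SU26, with a log2 fold change of 0.69 ± 0.12 in ZI418N against SU26 (adjusted p = 0.00323). The order of the lines is that of ry and not that of mal. Uba4 (13.7 CPM on average) and Mocs2B (6.59 to 9.82 CPM) were not called, and Mocs2A and Mocs2B share all their exonic bases, so reads cannot be assigned to one of them.

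Of the 5 other molybdoenzyme genes, 4 aldehyde oxidases and the sulfite oxidase shop, AOX3 rose in SU58 against SU26, shop fell in ZI418N against SU26, and AOX2, AOX3, AOX4 and shop fell in ZI418N against SU58. AOX3 had 385 and 384 CPM in ZI418N, 533 and 509 CPM in SU58, and 308 and 359 CPM in SU26, with log2 fold changes of 0.65 ± 0.11 in SU58 against SU26 (adjusted p = 0.00476; 0.0502 without SU58 replicate 1) and -0.44 ± 0.11 in ZI418N against SU58 (0.0246; 0.103 to 0.149 without any 1 library of these lines). shop had 28.6 and 31.1 CPM in ZI418N, 39.4 and 37.6 CPM in SU58, and 40.0 and 39.9 CPM in SU26. It fell by 0.42 in ZI418N against SU26 (adjusted p = 0.0189; lost without either SU26 library or ZI418N replicate 1, 0.0629 to 0.130) and by 0.37 in ZI418N against SU58 (0.0422), a call lost in 11 of 19 alternatives. AOX4 did not exceed 0.76 CPM in any library, so its fall in ZI418N against SU58 (adjusted p = 0.0199; 0.0567 to 0.135 without any 1 library of these lines) rests on few reads, and AOX2 (1.32 CPM on average; adjusted p = 0.0499) was little higher. The 4 aldehyde oxidase genes lie side by side on chromosome arm 3R, and how reads that fit several of them were counted is not given in the sources used here. AOX1, the most abundant of these genes at 2609 to 3640 CPM, shares its cofactor with xanthine dehydrogenase and was not called. Per kilobase AOX1 was at 617 to 861 CPM per kb, above ry and below Uro in every library. CG30016, which follows urate oxidase on the way to allantoin by its annotated family, was at 313 to 478 CPM and was not called in any pair of parental lines.

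**Figure D5:**
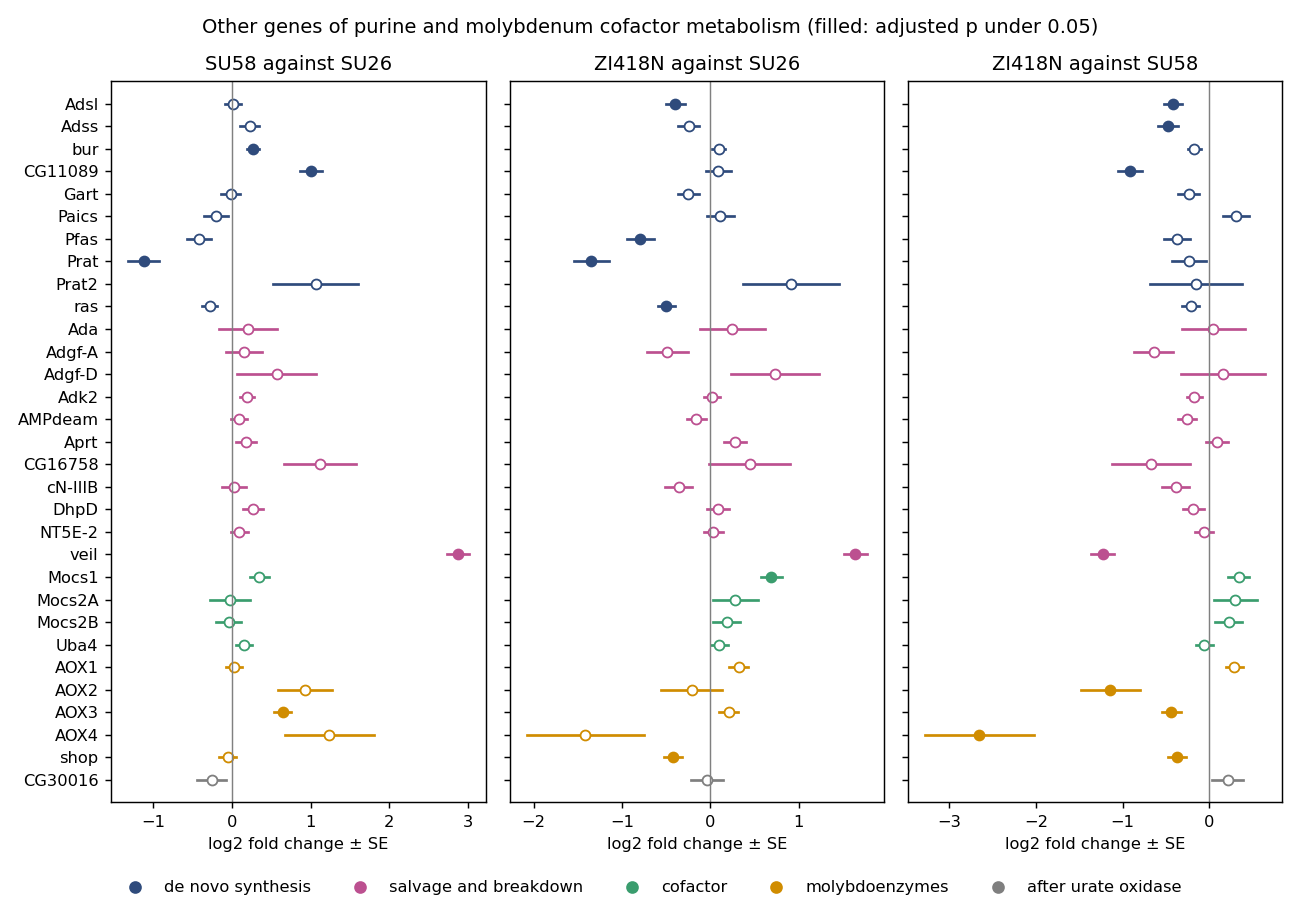
Log2 fold changes with SE of 31 other genes of purine and molybdenum cofactor metabolism between parental lines; filled circles had an adjusted p under 0.05 and colours give the gene group. veil lies far to the right of 0 in SU58 against SU26 (2.87) and ZI418N against SU26 (1.64), and the filled circles of ZI418N against SU58 are all below 0.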

How the data were processed

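Per the file headers, the authors deposited counts per gene for each library, beside a gene identifier, a CG number and a length, and all values were whole numbers. Per the labels' protocols, poly-A RNA was sequenced as paired reads of 125 bases. The aligner, counting tool, strand setting and genome build were not given in the sources used here. Of the 13919 identifiers, 13749 were named by identifier, 146 by CG number and 24 were unnamed; Alln was not found by name and CG18128 was not tested. Older symbols were matched through RefSeq synonyms. Positions come from Ensembl BDGP6, whose build may differ from that of the authors.

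edgeR 4.0.16 in R 4.3.3 was used with filterByExpr, TMM factors, a mean per genotype and the quasi-likelihood test (6 residual and 3.08 prior degrees of freedom), with Benjamini-Hochberg adjustment over 9302 genes at 0.05. The common biological coefficient of variation was 22.5%. SEs are approximate, the absolute log2 fold change over the square root of F, and 95% intervals come from them. Log2 CPM used a prior count of 2. The pairwise tests of genotypes shared libraries. For expression outside both parents, the larger p was used. With 2 libraries per genotype, p-values set a difference against the spread between libraries of the same genotype. That spread was estimated per gene over all 6 genotypes together and moderated with information from other genes. The libraries of a genotype were not copies (mean chi-square per gene from 13.8 to 123).

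The urate genes and all gene lists were chosen with earlier results of these data known. Genes other than the urate genes were named by rule: up to 3 per list by lowest adjusted p between parental lines, and the 3 most correlated with each urate gene. bur, Pfas, Adsl, Adss, AOX1, AOX2, NT5E-2, salt and the fat body markers were named after their values were seen. Alternatives were DESeq2 1.42.0, RLE and upper quartile factors, no filter on low counts, a replicate block, fits of the libraries compared alone, and leaving out libraries. The fold changes of bur, Pfas, Adsl, Adss, AOX2 and salt were not followed through these alternatives. No sequences were used here.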

Additional observations from a re-analysis of the deposited data

How the results depend on the processing

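Calls rest on 2 libraries per genotype, and those of AOX4 and AOX2, at low levels, also on few reads. With each library left out in turn, log2 fold changes against SU26 ranged as follows. Uro was -1.57 to -1.06 in SU26xSU58, -1.35 to -1.24 in SU26xZI418N, -1.51 to -0.81 in SU58xZI418N, -1.18 to -0.83 in ZI418N and -1.52 to -1.06 in SU58, mal was -0.59 to -0.38 in SU26xZI418N, -0.61 to -0.41 in SU58xZI418N, -0.63 to -0.39 in ZI418N and -0.51 to -0.31 in SU58, ry in ZI418N was 0.86 to 1.11, and the pairs of 15 called were 0 to 5 for Uro, 0 to 2 for ry and 0 to 4 for mal. Some values that were not called changed sign: deviations from mid-parent were -0.38 to 0.32 for Uro and -0.13 to 0.0205 for mal in SU58xZI418N, -0.0703 to 0.90 for ry in SU26xSU58, and -0.25 to 0.51 for ry and -0.0911 to 0.0398 for cin in SU26xZI418N. The Uro deviation of SU26xZI418N minus that of SU26xSU58 was -0.37 to 0.14, cin in hybrids against parents was -0.0487 to 0.0032, and mal in ZI418N against SU58 was -0.22 to 0.033. Adgf-A, CG30016 and Mocs2B ranged from -0.0732 to 0.37, -0.49 to 0.0249 and -0.13 to 0.0549 in SU58 against SU26, CG11089 and CG30016 from -0.01 to 0.18 and -0.27 to 0.24 in ZI418N against SU26, and Prat from -0.57 to 0.0505 in ZI418N against SU58.

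With upper quartile factors, the call of mal in SU58 against SU26 was lost (-0.37, adjusted p = 0.0718), cin was 0.0042 in hybrids against parents and 0.017 in SU26xZI418N against mid-parent, and Mocs2B in SU58 against SU26 was 0.0011. With only the libraries compared, calls against SU26 were lost for mal in SU26xZI418N (-0.48, adjusted p = 0.142), SU58xZI418N (-0.51, 0.0533) and ZI418N (-0.51, 0.0508) and for Uro in SU26xSU58 (-1.28, 0.050035), ry passed in ZI418N against SU26 (0.97) and against SU58 (0.65), and 1 pair was called for mal and 3 for ry. Without both libraries rich in ovarian transcripts, calls were lost in SU26xZI418N against SU26 for Uro (-1.23, adjusted p = 0.0882) and mal (-0.44, 0.171) and in SU58 against SU26 for Uro (-1.07, 0.111) and mal (-0.46, 0.153), SU58 against SU26 was -0.0072 for cN-IIIB and 0.0132 for Mocs2B, ry passed in ZI418N against SU26 (0.97, 0.0482), the Uro deviation of SU58xZI418N was -0.0869 and that of SU26xZI418N minus that of SU26xSU58 0.0243, and pairs called were 3 for Uro, 2 for mal and 1 for ry. With no filter, ry passed in ZI418N against SU26 (0.97, adjusted p = 0.0375) and 1 pair was called for ry. DESeq2 called ry in ZI418N against SU26 (0.96) and Uro in hybrids against parents (-0.48) and in SU26xZI418N against mid-parent (-0.80), and 2 pairs were called for ry. With the replicate block, Uro in SU58xZI418N against mid-parent was -0.012, no call of a urate gene changed, and genes called in SU26xZI418N against mid-parent were 68 in place of 465. The replicate numbers were not shown to pair the libraries, since same-numbered deviations correlated at -0.22 to 0.32 over 15 pairs of genotypes, 4 of them over 0.1. Some pathway genes also passed that the main fit did not call. With only the libraries compared, these were Adgf-A (-0.65, adjusted p = 0.0488) and cN-IIIB (-0.40, 0.0448) in ZI418N against SU58. In SU58 against SU26 they were Mocs1 with upper quartile factors (0.40, adjusted p = 0.0492) and ras with DESeq2 (-0.29, 0.0259). The causes were not tested.

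Over the alternatives, the number of genes called was 492 to 1939 beside 1639 in SU58 against SU26, 1217 to 2565 beside 2235 in ZI418N against SU26, 703 to 2459 beside 1573 in ZI418N against SU58, 4 to 69 beside 10 in SU26xSU58 against mid-parent, 14 to 1773 beside 465 in SU26xZI418N, 13 to 85 beside 36 in SU58xZI418N, 28 to 790 beside 79 in hybrids against parents, 8 to 1903 beside 440 in SU26xZI418N against SU26xSU58, 92 to 508 beside 269 in SU58xZI418N against SU26xSU58 and 7 to 1537 beside 192 in SU58xZI418N against SU26xZI418N. No urate gene was called between hybrids under any alternative run.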
